A study of Mus musculus with 44 samples.

Results

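The prolyl peptidases are serine proteases that cleave peptides at proline, and the mouse genes Dpp4, Fap, Dpp7, Dpp8, Dpp9, Prep and Prcp, the 7 members described here, encode the best known of them. They were chosen by symbol from the gene count table, in which all 7 of 7 were found among 55486 genes. The samples were RNA-seq libraries of fibroblasts sorted from mammary glands and mammary tumors of mice. Dpp4 encodes CD26, the surface protein by which these fibroblasts were sorted, so its difference between CD26− and CD26+ cells was fixed by the sort and is described, not tested.

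DPP4 and FAP are membrane proteases of the same family. DPP4 removes dipeptides behind a proline or alanine from the ends of incretin hormones and of many chemokines. FAP (fibroblast activation protein) can also remove dipeptides behind a proline, and it cuts within chains, as in alpha-2-antiplasmin and denatured collagen. It is widely used as a marker of reactive fibroblasts in tumors. DPP8 and DPP9 are cytosolic dipeptidyl peptidases that restrain inflammasome sensors, DPP7 is a vesicular dipeptidyl peptidase, PREP is a cytosolic endopeptidase of short peptides, and PRCP is a lysosomal carboxypeptidase that trims angiotensins and melanocortin peptides at their carboxyl end.

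The hosts were En1-Cre;mTmG mice, in which GFP marks cells whose lineage has expressed Engrailed-1 (En1), a marker of some skin fibroblasts. They received mammary tissue of 1 of 3 kinds: control tissue, tissue of WapCre;Brca1F/F;Trp53F/F donors (WB1P), or tissue of WB1P donors that also carried Col1a1invCAG-Myc-IRES-Luc (WB1P-Myc), an allele that adds Myc. The labels call the control samples wildtype. For its control transplants the paper names WapCre-negative Cdh1F/F;PtenF/F donors. The Wap promoter drives Cre in the mammary epithelium, so that the deletions and added Myc belong to the transplanted epithelium and not to the fibroblasts, and the fat pads were not cleared of the hosts' own epithelium. The series describes its tumors as end stage and its control glands as matched in age, the ages themselves not being among the labels. Stromal cells negative for EpCAM, CD49f, CD31 and CD45 were divided by CD26 and GFP. Cells of control glands are called normal fibroblasts (NFs) and cells of tumors cancer-associated fibroblasts (CAFs).

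There were 44 libraries, 12 of control, 16 of WB1P and 16 of WB1P-Myc mice, from 13 mice. Control mice 1 to 3 each carry a pair of numbers in their labels and may be pools, WB1P mice are numbered 4 to 8 and WB1P-Myc mice 9 to 13, and 2 of the latter (mice 12 and 13) are marked 8x8. The labels do not explain the mark, which has the form of the tumor size in mm that the study's methods call advanced, so these tumors may have been smaller than end stage. Library totals ran from 5790599 to 15240328 counts. Libraries of a mouse and CD26 class were summed over GFP, which left 25 sums: 3 CD26− and 3 CD26+ of control, 5 and 4 of WB1P, and 5 and 5 of WB1P-Myc mice. Levels are counts per 1000000 counts (CPM), on library sizes scaled by edgeR. A gene is called where the false discovery rate (FDR) of edgeR's quasi-likelihood test, adjusted over all 16601 genes tested, was under 0.05.

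Markers of other cells differed between the groups. The summed level of 6 pericyte markers was 155 to 393 CPM over the NFs and the CD26+ CAFs, but 1822 to 5285 CPM in CD26− CAFs of WB1P mice and 2353 to 9067 CPM in those of WB1P-Myc mice, where 6 of 6 were called higher than in NFs. The sum of 3 proliferation markers was 2.53 to 86.9 CPM in NFs and 112 to 321 CPM in CAFs. In all 4 comparisons of CAFs with NFs 3 of 3 were called higher, beside 17.4% to 19.1% of all genes. The sum of 4 endothelial markers was 33.4 to 53.5 CPM in CD26− and 181 to 514 CPM in CD26+ NFs, and 8.08 to 22.5 CPM in CD26− and 72.6 to 194 CPM in CD26+ CAFs. This difference was not called for all 4. In CD26+ against CD26− NFs 1 was called higher, with a median log2 of 0.80 over the 4. In WB1P CAFs 2 were called higher, and in WB1P-Myc CAFs 2 higher and 1 lower. Beside this, 4.17%, 26% and 20% of all genes were called by CD26 class. Of the genes of the gated-out surface proteins, Pecam1 (CD31) reached 14.2 CPM, Ptprc (CD45) reached 9.57 CPM, and Epcam, at 0 in 1 sum, reached 42.8 CPM. Epithelial markers summed to 0.364 to 168 CPM and immune markers to 6.59 to 229 CPM, the latter mostly Cd3e, which reached 221 CPM. Fibroblast markers summed to 19706 to 56630 CPM in every sum. In the CD26− CAFs, where the pericyte markers were higher, 3 of 6 were called lower than in NFs in each model. In WB1P 2 of 6, Col1a1 and Col1a2, were called higher (log2 0.92 and 0.69), against 0 of 6 in WB1P-Myc. The median log2 of the 6 was −0.75 in WB1P and −0.55 in WB1P-Myc. Of all genes 35.4% and 36.6% were called in these comparisons.

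The members are shown first by the stretch of coding sequence that makes them serine peptidases. In each transcript the codon of the catalytic serine was found as the serine of a glycine, tryptophan or glycine, serine, tyrosine or asparagine, glycine, glycine motif in the longest reading frame. Printed 5′ to 3′ are 27 bases, the serine codon in capitals and 4 codons to each side, from GENCODE M21 transcripts on GRCm38.
Dpp4: atttggggctggTCAtatggagggtat
Fap: atatggggctggTCCtacggaggttat
Dpp8: atccacggctggTCCtatggtggctac
Dpp9: atccatggctggTCCtacggcggcttc
Dpp7: gcctttggagggAGTtatggggggatg
Prep: atcaacggaggcTCCaacggcggcctc
Prcp: gccatcgggggcTCTtatggtggcatg
Position by position, Fap shared 23 of these 27 bases with Dpp4, Dpp8 shared 19, Dpp9 shared 17, Dpp7 shared 13, and Prep and Prcp shared 12 each. The Dpp4 stretch (chr2:62347903-62348512, minus strand) and the Fap stretch (chr2:62504591-62512397, minus strand) are split at the same place, with 12 bases in exon 21 and the rest in exon 22 of 26. The Dpp7 stretch is split between exons 4 and 5 of 13 (chr2:25355016-25355571, minus strand). The others lie within an exon: exon 18 of 21 in Dpp8 (chr9:65075820-65075846, plus strand), exon 18 of 21 in Dpp9 (chr17:56190032-56190058, minus strand), exon 13 of 15 in Prep (chr10:45153153-45153179, plus strand) and exon 4 of 9 in Prcp (chr7:92910246-92910272, plus strand). The reading frames held 760 codons in Dpp4, 761 in Fap, 506 in Dpp7, 892 in Dpp8, 862 in Dpp9, 710 in Prep and 491 in Prcp.

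Dpp4 and Fap are neighbours on chromosome 2. Dpp4 (ENSMUSG00000035000) lies at chr2:62330073-62412231 and Fap (ENSMUSG00000000392) at chr2:62500943-62574075, both on the minus strand, 88711 bases apart, with Gcg, the proglucagon gene, between them. Dpp7 (ENSMUSG00000026958) lies elsewhere on the same chromosome at chr2:25352276-25356359. The remaining members are at chr9:65032414-65082651 (Dpp8, ENSMUSG00000032393), chr17:56186807-56218905 (Dpp9, ENSMUSG00000001229), chr10:45067203-45167198 (Prep, ENSMUSG00000019849) and chr7:92874470-92934583 (Prcp, ENSMUSG00000061119). Annotated genes that overlap a member took almost no counts over all 25 sums: 0 for Gm13561 against 120495 for Dpp4, 7 for Gm47350 against 63658 for Dpp8, 0 for Gm23766 against 37117 for Prep and 39 for 9530078K11Rik against 20421 for Prcp.

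Dpp4 was first read as a check of the sort. In CD26+ sums its level was 265, 805 and 510 CPM in control mice, 505, 234, 402 and 537 CPM in WB1P mice 5 to 8, and 612, 298, 409, 438 and 293 CPM in WB1P-Myc mice. In CD26− sums it was 1.74, 6.90 and 5.96 CPM in control, 0.620, 6.52, 1.71, 8.90 and 7.43 CPM in WB1P, and 8.21, 2.21, 15.3, 6.90 and 6.26 CPM in WB1P-Myc mice. No sum of a class reached the range of the other, so that the RNA followed the sort in all 12 mice with both classes. The ratio of CD26+ to CD26− within a mouse ran from 26.7 to 152, with a median of 76.0. Dpp4 RNA was detected in every CD26− sum, with at least 8 counts. In the 12 mice with both classes it was at 0.657% to 3.75% of the level in CD26+ cells of the same mouse. In these bulk samples a few cells of high level and a low level in many cells cannot be told apart, and the same holds for fewer cells of a type against less RNA per cell in every result that follows.

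**Figure D1:**
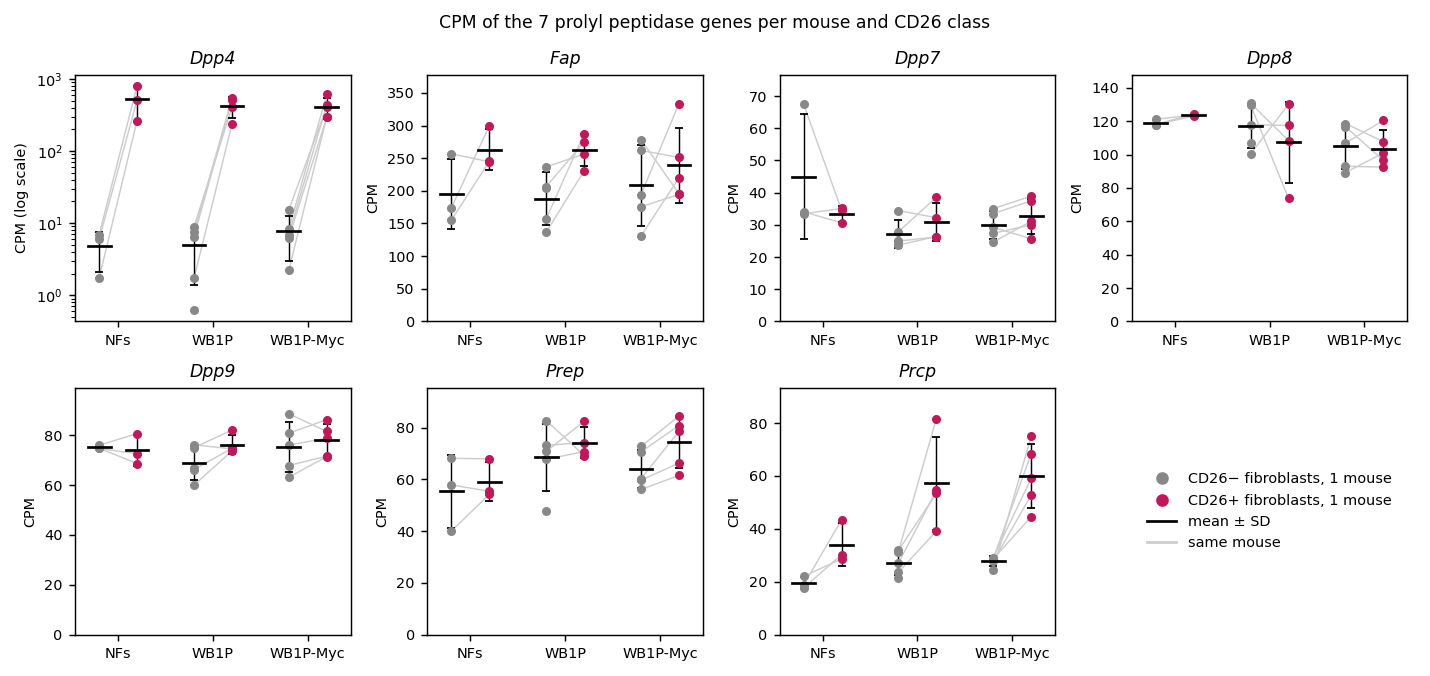
Level of each member (CPM, vertical axis, logarithmic for Dpp4 and linear from 0 for the others) in each mouse, by model and CD26 class (CD26− grey, CD26+ red). Points are mice, bars the mean ± SD, and grey lines join the classes of a mouse. Prcp lies higher in CD26+ than in CD26− cells in all 12 mice with both classes.

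Levels of different genes were compared only per length, as CPM per kilobase of the longest coding transcript. In CD26− cells Fap ranked highest, at 71.0 CPM per kilobase in NFs, 68.4 in WB1P and 75.7 in WB1P-Myc CAFs, and Dpp4 ranked lowest, at 0.924, 0.956 and 1.48. In all 13 CD26− sums Fap was above Dpp4, by 16.4-fold to 630-fold. In CD26+ cells the pair had similar levels, 99.9 for Dpp4 and 95.6 for Fap in NFs, 79.6 and 95.3 in WB1P, and 77.8 and 86.9 in WB1P-Myc CAFs. Dpp4 was above Fap in 2 of 12 CD26+ sums (control mouse 2 and WB1P-Myc mouse 12), and the ratio of Dpp4 to Fap ran from 0.476 to 1.72. This order depended on the length used: per kilobase of all exons joined, Dpp4 was at 83.3 and Fap at 46.5 in CD26+ NFs. Per kilobase of the longest coding transcript Dpp8, Dpp9 and Dpp7 followed, with group means from 16.2 to 26.7. Neighbours among them overlapped in their ranges except that Dpp8 lay above Dpp9 in both classes of NFs. This order too depended on the length used. Per kilobase of all exons joined, Dpp9 at 9.48 to 9.63 lay above Dpp8 at 8.60 to 8.83 in CD26− NFs. In CD26+ NFs Dpp9 and Dpp8 then overlapped, with means of 9.38 and 9.03. Prcp had means of 6.59, 9.12 and 9.37 in CD26− NFs, WB1P and WB1P-Myc CAFs and of 11.5, 19.3 and 20.2 in the CD26+ cells, where it overlapped Dpp7 in CAFs. Prep lay between 5.07 and 6.80 and was the lowest of the 7 in CD26+ cells.

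**Figure D2:**
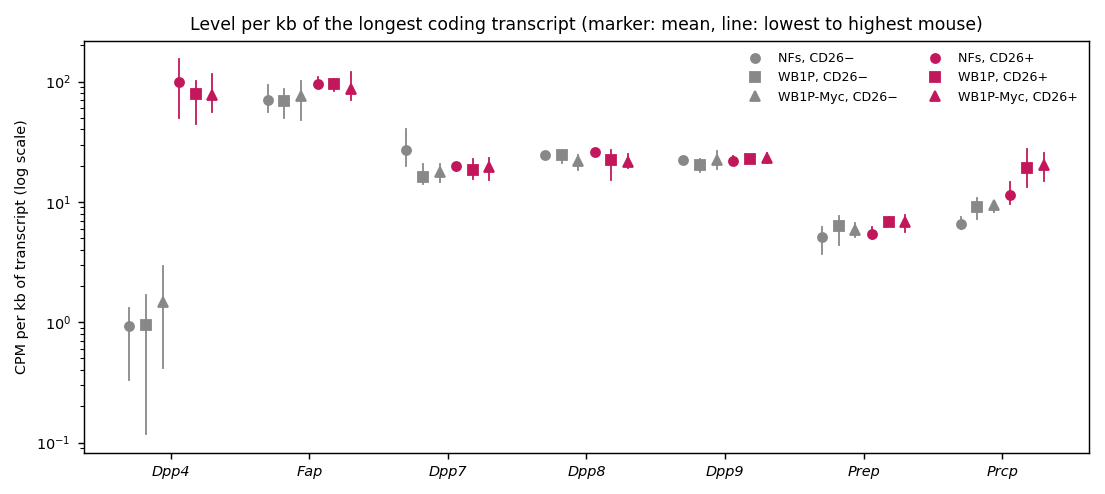
Level of each member in CPM per kilobase of the longest coding transcript (logarithmic axis), by model and CD26 class. Points are group means and bars run from the lowest to the highest mouse. Fap stands highest in the CD26− groups, while Dpp4 moves from the lowest place in CD26− to about the level of Fap in CD26+ groups.

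Fap, the fibroblast activation protein gene, was high in NFs already and no difference between NFs and CAFs was called. Its level in CD26− cells was 155, 257 and 174 CPM in control, 204, 206, 237, 137 and 157 CPM in WB1P, and 194, 262, 131, 278 and 176 CPM in WB1P-Myc mice. Its CD26+ level was 245, 245 and 300 CPM in control, 275, 256, 231 and 288 CPM in WB1P, and 334, 251, 220, 196 and 194 CPM in WB1P-Myc mice. The groups overlapped in all 4 comparisons of CAFs with NFs. The fold of CAFs over NFs in CD26− cells was 0.964 in WB1P (95% interval 0.692 to 1.34, FDR = 0.876) and 1.07 in WB1P-Myc mice (0.765 to 1.49, FDR = 0.775). In CD26+ cells it was 0.997 in WB1P (0.705 to 1.41, FDR = 0.993) and 0.908 in WB1P-Myc mice (0.653 to 1.26, FDR = 0.665). These intervals leave out a rise of 1.5-fold or more in each comparison, beside a background in which edgeR called 17.4% to 19.1% of all genes higher in CAFs. Across CD26, Fap was higher in the CD26+ cells of 9 of 12 mice, with ratios of 0.703 to 1.83, and it was not called in NFs (1.35-fold, 0.929 to 1.95, FDR = 0.525), WB1P (1.39-fold, 1.03 to 1.89, FDR = 0.100) or WB1P-Myc CAFs (1.15-fold, 0.861 to 1.53, FDR = 0.551).

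Prcp, the lysosomal carboxypeptidase gene, was the member apart from Dpp4 that differed by CD26 class. Its level in CD26− cells was 22.1, 18.8 and 17.7 CPM in control, 21.4, 31.4, 31.9, 23.6 and 27.1 CPM in WB1P, and 24.6, 29.2, 28.8, 28.7 and 27.8 CPM in WB1P-Myc mice. The CD26+ cells had 28.6, 43.4 and 30.3 CPM in control, 81.6, 53.4, 39.2 and 54.5 CPM in WB1P, and 75.1, 59.0, 68.4, 44.6 and 52.7 CPM in WB1P-Myc mice. Within each model every CD26+ sum was above every CD26− sum, and Prcp was higher in the CD26+ cells of 12 of 12 mice, by 1.29-fold to 3.05-fold. The fitted fold was 1.74 in NFs (log2 0.80, SE 0.22, FDR = 0.0436), 2.11 in WB1P CAFs (log2 1.08, SE 0.18, FDR = 0.000154) and 2.16 in WB1P-Myc CAFs (log2 1.11, SE 0.17, FDR = 7.58e-05). Counted with Dpp4, which the sort fixes, 2 of 7 members were called in each of the 3 comparisons, both higher in CD26+, where edgeR called 4.17% of all genes in NFs, 26% in WB1P and 20% in WB1P-Myc CAFs. Higher calls alone made up 2.67%, 13% and 9.29%. Dpp8 also did not overlap between the classes of NFs, with 124, 124 and 123 CPM in CD26+ against 121, 118 and 118 CPM in CD26−, but its difference was not called (log2 0.06, FDR = 0.965). Apart from Dpp4, the members higher without overlap were thus Prcp and Dpp8 in NFs, and Prcp alone in WB1P and WB1P-Myc CAFs. Counted with Dpp4, whose place the sort fixes, these were 3 of 7 in NFs, beside 9.78% of all genes. In WB1P and WB1P-Myc CAFs they were 2 of 7, beside 10.1% and 7.67%.

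In CAFs the CD26 difference of Prcp passed the test under all 19 alternatives in each model. In NFs its FDR was under 0.05 in 7 of 19 alternatives, with a largest value of 0.557 without control mouse 2 (log2 0.56), and it was lost as well without control mice 1 or 3, WB1P mice 6 or 8, or WB1P-Myc mice 10, 11 or 13, and in 4 other settings of the fit. Whether the CD26 difference of Prcp changed from NFs to CAFs was tested as an interaction, which was not called (1.22-fold, 0.847 to 1.77, FDR = 0.715). The pericyte markers differed by CD26 class in CAFs in the direction opposite to Prcp, low in CD26+ and high in CD26− cells. In NFs, where Prcp was also higher in CD26+ cells of all 3 mice, they summed to 203 to 370 CPM in CD26− and 167 to 189 CPM in CD26+ cells. The summed level of the endothelial markers was higher in CD26+ cells of all 3 models. Of these 4 markers, 1 was called higher in CD26+ NFs, 2 in WB1P CAFs, and 2 higher and 1 lower in WB1P-Myc CAFs. Of all genes 4.17%, 26% and 20% were called in these comparisons. The part of the pericyte and endothelial markers in the result was not tested.

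**Figure D3:**
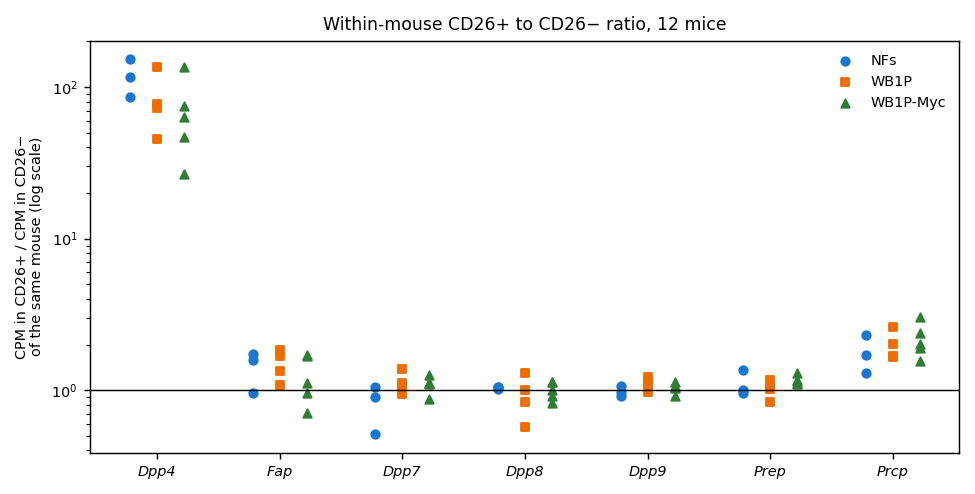
Ratio of the CD26+ to the CD26− level of each member within each of 12 mice (logarithmic axis), with symbols by model and a line at equal levels. All 12 mice lie above the line for Dpp4, which the sort fixes, and for Prcp, while the other members have mice on each side of it.

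Prcp was also higher in CAFs than in NFs within the CD26+ class. The fold over CD26+ NFs was 1.68 in WB1P (log2 0.75, SE 0.21, 95% interval 1.24 to 2.27, FDR = 0.0103) and 1.76 in WB1P-Myc CAFs (log2 0.81, SE 0.20, 1.31 to 2.36, FDR = 0.00459). Every WB1P-Myc sum, from 44.6 CPM, was above the highest NF sum at 43.4 CPM, while WB1P mouse 7 at 39.2 CPM lay below it. It was the only member called in either comparison, 1 of 7, where edgeR called 33.5% of all genes in WB1P and 34.7% in WB1P-Myc. In CD26− cells the fold was 1.39 in WB1P (1.03 to 1.85, FDR = 0.0746) and 1.42 in WB1P-Myc CAFs (1.06 to 1.90, FDR = 0.0541), neither of them called, although every WB1P-Myc sum was above every NF sum. The first was called without WB1P mouse 4 or 7 (FDR = 0.0485 and 0.0497), and the second without WB1P mouse 5 or 7 or WB1P-Myc mouse 9 (FDR = 0.0339, 0.0413 and 0.0473). The WB1P-Myc call in CD26+ cells held under all 18 alternatives (log2 0.70 to 1.04). The WB1P call was lost when WB1P mouse 5 was left out (log2 0.50, FDR = 0.0540), and also without control mouse 1 (FDR = 0.0579), without control mouse 3 (FDR = 0.0633) and in a fit of only these groups (FDR = 0.0760). The proliferation markers were higher in these CAFs too, and their part in the result was not tested.

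Dpp7, the vesicular dipeptidyl peptidase gene, was called lower in CD26− CAFs than in CD26− NFs, and this rested on 1 mouse. Its level was 34.1, 67.5 and 33.4 CPM in the CD26− cells of control, 25, 34.4, 27.9, 24.9 and 23.7 CPM in WB1P, and 24.6, 27.4, 35.1, 29.2 and 33.5 CPM in WB1P-Myc mice. In CD26+ cells it was 30.7, 34.6 and 35.1 CPM in control, 32.2, 38.6, 26.3 and 26.4 CPM in WB1P, and 31.1, 30.0, 38.9, 25.7 and 37.5 CPM in WB1P-Myc mice. Control mouse 2 stood out, at 67.5 CPM in its CD26− cells and 34.6 CPM in its CD26+ cells, and all groups overlapped. The fold was 0.605 in WB1P (log2 −0.73, SE 0.20, 0.454 to 0.806, FDR = 0.00719) and 0.666 in WB1P-Myc CAFs (log2 −0.59, SE 0.20, 0.500 to 0.887, FDR = 0.0255). Dpp7 was the 1 member of 7 called in each comparison, where edgeR called 35.4% and 36.6% of all genes. Without control mouse 2 the log2 change was −0.29 (FDR = 0.257) in WB1P and −0.16 (FDR = 0.543) in WB1P-Myc CAFs. In the CD26+ class it was −0.12 (FDR = 0.684) and −0.04 (FDR = 0.908). The WB1P-Myc call was also lost without WB1P-Myc mouse 9 (FDR = 0.0636) or 10 (FDR = 0.0509), without the 8x8 mice (FDR = 0.0578) and in a fit of only these groups (FDR = 0.0940). The change of its CD26 difference from NFs to CAFs was 1.49-fold (1.03 to 2.17) and was not called (FDR = 0.329).

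The cytosolic members Dpp8, Dpp9 and Prep were called in no comparison, except that Prep in CD26− WB1P CAFs was called higher than in NFs without control mouse 1 (log2 0.49, FDR = 0.0459) or without WB1P mouse 4 (log2 0.41, FDR = 0.0463). Dpp9 was the most even of the 7, its highest sum being 1.48 times its lowest, followed by Dpp8 at 1.77 and Prep at 2.11, against 2.55 for Fap, 2.84 for Dpp7, 4.60 for Prcp and 1297 for Dpp4. Mean Dpp9 levels lay between 68.8 ± 6.73 CPM (SD, n = 5, CD26− WB1P CAFs) and 77.9 ± 6.41 CPM (SD, n = 5, CD26+ WB1P-Myc CAFs). Dpp8 was close to constant in NFs, at 119 ± 1.82 CPM (SD, n = 3) in CD26− and 124 ± 0.644 CPM (SD, n = 3) in CD26+ cells, and less so in CAFs. Each CD26+ WB1P-Myc sum of Dpp8, from 92.5 to 120 CPM, was below each CD26+ NF sum, a difference that was not called (0.837-fold, 0.681 to 1.03, FDR = 0.166). For Prep, the 4 CD26+ WB1P sums at 82.5, 74.2, 70.8 and 69.2 CPM were above the NF sums at 67.9, 54.2 and 55.4 CPM, again without a call (1.25-fold, 0.975 to 1.61, FDR = 0.153). The fold of Prep over NFs was 1.24 (FDR = 0.159) in CD26− WB1P, 1.15 (FDR = 0.343) in CD26− WB1P-Myc and 1.26 (FDR = 0.130) in CD26+ WB1P-Myc CAFs. The CAFs without overlap with NFs were thus Prcp higher in CD26− WB1P-Myc (1 of 7, beside 18.5% of all genes), Prep higher in CD26+ WB1P (1 of 7, beside 17.7%), and Prcp higher and Dpp8 lower in CD26+ WB1P-Myc cells (1 of 7 each, beside 18.2% and 18%), with 0 of 7 in CD26− WB1P cells (beside 19.1% higher and 18.4% lower). Comparisons of both tumor models with NFs share the same 3 control mice and are not independent.

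**Figure D4:**
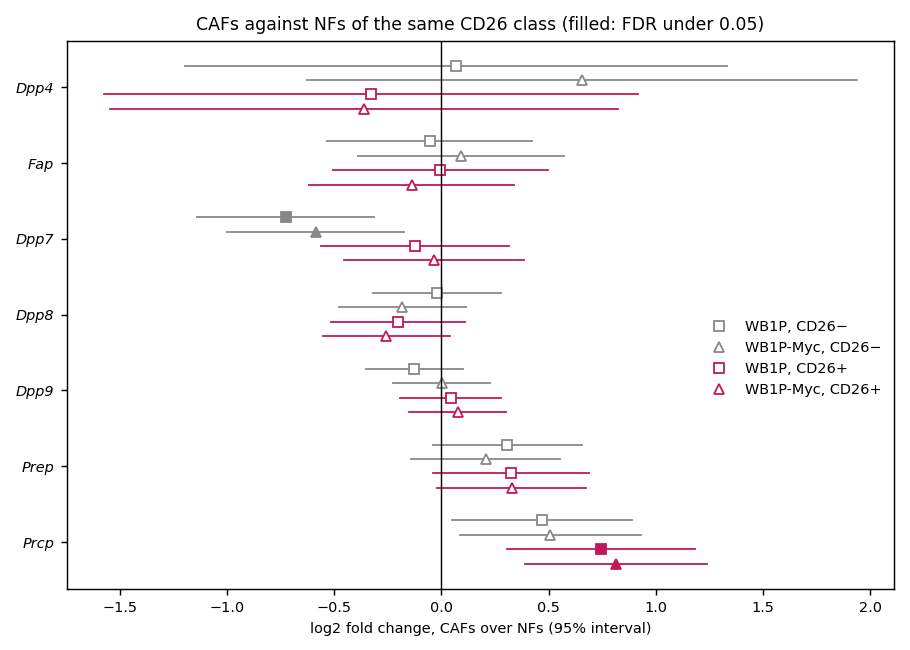
Log2 fold change of CAFs over NFs of the same CD26 class for each member, with 95% intervals (squares WB1P, triangles WB1P-Myc, grey CD26−, red CD26+; filled where the FDR is under 0.05). Filled symbols are those of Dpp7 in CD26− cells and of Prcp in CD26+ cells, and the intervals of Fap span 0 in all 4 comparisons.

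Dpp4 itself could be compared between NFs and CAFs within a CD26 class, although a gate on CD26 limits how far it can move. Its CD26+ level was 527 ± 270 CPM (SD, n = 3) in NFs, 419 ± 136 CPM (SD, n = 4) in WB1P and 410 ± 130 CPM (SD, n = 5) in WB1P-Myc CAFs. The fold over NFs was 0.797 (0.336 to 1.89, FDR = 0.703) and 0.779 (0.343 to 1.77, FDR = 0.649). In the CD26− class it was 4.87 ± 2.75 CPM (SD, n = 3) in NFs, 5.04 ± 3.66 CPM (SD, n = 5) in WB1P and 7.78 ± 4.77 CPM (SD, n = 5) in WB1P-Myc CAFs, with folds of 1.05 (0.437 to 2.52, FDR = 0.940) and 1.58 (0.648 to 3.83, FDR = 0.418). All these groups overlapped, and the wide intervals do not separate an equal level from a change of 1.5-fold.

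The effect of the added Myc was read between the tumor models. Between WB1P-Myc and WB1P CAFs 0 of 7 were called by edgeR in CD26− cells, where it called 0.512% of all genes, and 0 of 7 in CD26+ cells, where it called 0%. No member reached an unadjusted p under 0.05 in either class (0 of 7 each), and DESeq2 called 0 of 7 as well. For Prcp the fold was 1.03 (0.800 to 1.32) in CD26− and 1.05 (0.806 to 1.36) in CD26+ cells, and for Fap the log2 difference was 0.15 and −0.13. Likewise 0 of 7 members were called for a change of the CD26 difference between NFs and CAFs, where edgeR called 2.11% of all genes, with 1 of 7, Dpp7, under an unadjusted p of 0.05 and 0 of 7 called by DESeq2.

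En1 lineage, read as GFP, was compared between libraries of the same model and CD26 class. In CAFs and NFs of both CD26 classes edgeR called 0 of 7 members, and 0 of 7 by DESeq2, beside 0% of 15584 genes in CD26− CAFs, 0.0193% in CD26+ CAFs and 0.00642% in each class of NFs. The only unadjusted p under 0.05 was that of Dpp8 in CD26+ CAFs (log2 −0.20, SE 0.09, FDR = 1.00), which was higher in the En1+ library of 1 of 6 mice. Dpp4 in CD26− CAFs was higher in En1+ cells in 1 of 7 mice, with ratios of 0.440 to 1.21 (log2 −0.81, SE 0.41, FDR = 1.00). Dpp7 in CD26+ CAFs was higher in En1+ cells in 6 of 6 mice, by at most 1.33-fold, without a call.

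The genes most like a member were ranked by Pearson's r of log2 CPM over the 25 sums, which share mice and the CD26 split, so the values describe the likeness only. For Dpp4 they were Sema3c, a secreted semaphorin (r = 0.975, and 0.718 over the 12 CD26+ and 0.740 over the 13 CD26− sums), 1700019D03Rik (0.974), the kinase gene Stk32b (0.966, and 0.837 over the CD26+ sums), Krtdap (0.962, and 0.307 over the CD26+ sums) and the chemerin receptor gene Gpr1 (0.961). Sema3c had a median of 42.8 CPM in CD26− and 1039 CPM in CD26+ sums. No gene came close to Fap: its nearest were Cfap99 and Sgsh (0.682 each), Arl15 (0.678), Gm9129 (0.670) and Ppp3cb (0.669). Prcp, listed after its values were seen, lay nearest to Agfg1 (0.954), Tmem43 (0.939), Ugp2 (0.934), Rab32 (0.933) and Sulf2 (0.932). Among the members themselves the highest value was that of Dpp4 and Prcp, 0.787 over all sums but 0.160 over the CD26+ and 0.0954 over the CD26− sums. Dpp4 and Fap had r = 0.479 over all sums, 0.395 over the CD26+ and −0.337 over the CD26− sums.

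Other peptidases that act at proline or release dipeptides, and relatives of DPP4, were described from a list of 13 genes, of which 12 were tested in the sums. In CAFs 4 were called higher and 1 lower than NFs in CD26− WB1P, 4 and 0 in CD26− WB1P-Myc, 4 and 0 in CD26+ WB1P, and 5 and 0 in CD26+ WB1P-Myc, with median log2 changes of 0.32, 0.16, 0.22 and 0.24 beside medians over all genes between −0.02 and 0.03 and 33.5% to 36.6% of all genes called in either direction. The largest change was that of Dpp6, a relative of DPP4 without enzyme activity that serves as a subunit of potassium channels. It had 3, 6 and 0 counts in the CD26− sums of control mice, and 47.4, 21.8, 25.6, 30.6 and 11.3 CPM in those of WB1P and 14.1, 4.72, 2.87, 2.19 and 6.67 CPM in those of WB1P-Myc mice. In CD26+ cells Dpp6 was at 0.238, 1.17 and 0.386 CPM in control, 9.17, 20.8, 12.1 and 9.87 CPM in WB1P, and 10.6, 4.03, 1.81, 5.38 and 9.68 CPM in WB1P-Myc mice. Every CAF sum of Dpp6 was above every NF sum. The log2 change was 7.92 (SE 0.96, FDR = 2.40e-06) and 5.76 (SE 0.92, FDR = 6.59e-05) in CD26− WB1P and WB1P-Myc, and 4.41 (SE 0.78, FDR = 0.000297) and 3.40 (SE 0.74, FDR = 0.00165) in the CD26+ cells. With counts this low in NFs, the fitted sizes in CD26− cells depend on the small count that edgeR adds.

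Ctsc, the lysosomal dipeptidyl peptidase I or cathepsin C that activates granule proteases, was higher in CAFs and most of all in CD26− CAFs. Its level in CD26− cells was 25.7, 9.50 and 16.6 CPM in control, 370, 409, 274, 292 and 296 CPM in WB1P, and 258, 200, 244, 176 and 130 CPM in WB1P-Myc mice. The CD26+ cells had 15.8, 3.97 and 8.27 CPM in control, 41.2, 21.7, 19.2 and 34.9 CPM in WB1P, and 29.8, 33.7, 46.9, 12.0 and 29.4 CPM in WB1P-Myc mice. No CD26− CAF sum came within the range of any other group. The log2 change over NFs was 4.25 (SE 0.48, FDR = 9.31e-07) and 3.55 (SE 0.46, FDR = 8.14e-06) in CD26−, and 1.66 (SE 0.44, FDR = 0.00639) and 1.70 (SE 0.42, FDR = 0.00438) in CD26+ WB1P and WB1P-Myc cells. Ctsc was lower in the CD26+ cells of 12 of 12 mice, opposite to Prcp, and its log2 CD26 difference was −3.48 (SE 0.41, FDR = 2.58e-06) in WB1P and −2.73 (SE 0.36, FDR = 9.61e-06) in WB1P-Myc CAFs. The pericyte markers were likewise highest in the CD26− CAFs, and their part in the result was not tested.

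Among the aminopeptidases, Xpnpep1, which removes residues in front of a proline, was called higher in CAFs of both classes and models, with log2 changes of 0.84 and 0.74 in CD26− and 1.33 and 1.35 in CD26+ WB1P and WB1P-Myc cells (FDR between 1.27e-05 and 0.00193). Its CD26+ sums ran from 109 to 140 CPM in CAFs and from 40.8 to 54.6 CPM in NFs. Anpep, the aminopeptidase N also known as CD13 on stromal cells, was like Prcp higher in the CD26+ cells of 12 of 12 mice, by 1.86-fold to 4.12-fold. Its log2 difference was 1.59 (SE 0.26, FDR = 0.000107) in WB1P, 1.20 (SE 0.25, FDR = 0.00113) in WB1P-Myc CAFs and 1.13 (SE 0.32, FDR = 0.0444) in NFs, the last being lost in 14 of 19 alternatives with an FDR of up to 0.383, among them those without any of control mice 1 to 3. Xpnpep2, the membrane-bound relative of Xpnpep1, was called higher in CD26+ than CD26− WB1P CAFs (log2 1.34, SE 0.40, FDR = 0.0152). This call was lost without WB1P mouse 7 (FDR = 0.0602) or 8 (FDR = 0.0650) and in a fit of only these groups (FDR = 0.0512). Over the 12 genes, 1 was called higher in CD26+ NFs, 5 higher and 1 lower in CD26+ WB1P CAFs, and 2 higher and 1 lower in CD26+ WB1P-Myc CAFs, beside 4.17%, 26% and 20% of all genes in either direction. With the mouse as a block these totals became 3, 6 and 6. The block also raised the number of all genes called in NFs and WB1P-Myc CAFs. The shares above belong to the fit without it, so these totals are not read against them.

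**Figure D5:**
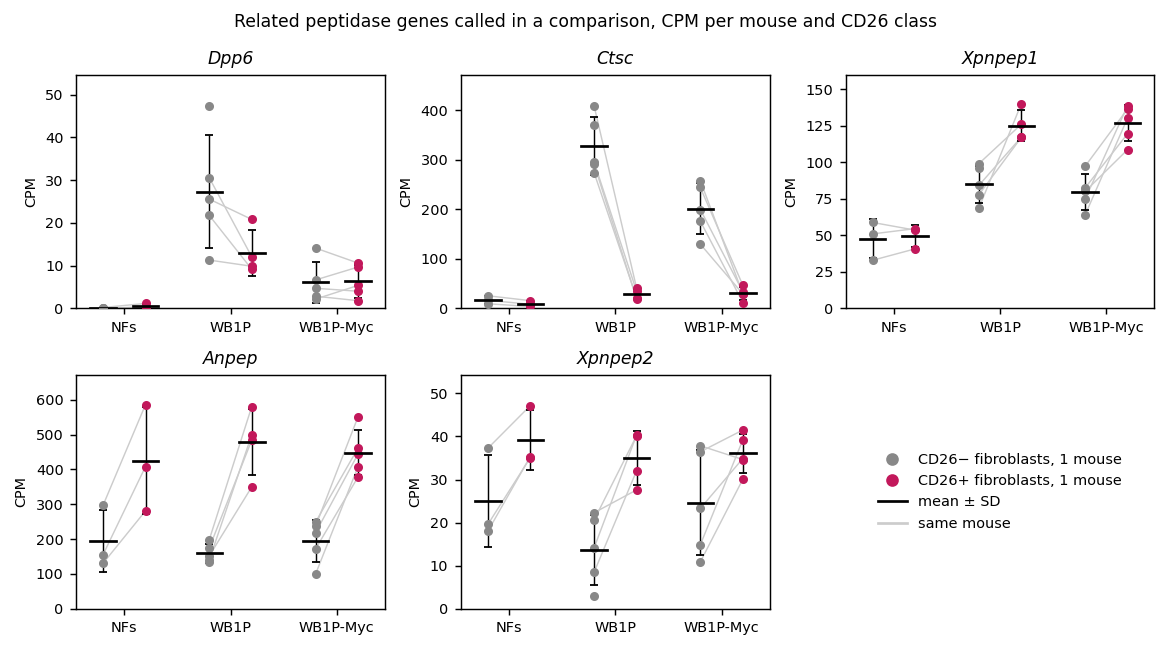
Level of Dpp6, Ctsc, Xpnpep1, Anpep and Xpnpep2 (CPM, linear axis from 0) in each mouse by model and CD26 class (CD26− grey, CD26+ red), with bars for the mean ± SD and grey lines joining the classes of a mouse. Ctsc is highest in CD26− CAFs, at 130 to 409 CPM, and Anpep lies higher in CD26+ than CD26− cells of all 12 mice with both classes.

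The listed substrates of DPP4 are hormone, chemokine and growth factor genes. Of 14 genes 12 were tested, and 5 were called higher and 2 lower than NFs in CD26− WB1P, 4 and 1 in CD26− WB1P-Myc, 3 and 1 in CD26+ WB1P, and 6 and 0 in CD26+ WB1P-Myc CAFs, with median log2 changes of 2.72, 2.66, 1.81 and 2.40 beside 0.00, 0.02, 0.00 and −0.01 over all genes. Of all genes 35.4%, 36.6%, 33.5% and 34.7% were called in these comparisons. Csf2, the growth factor GM-CSF, was called higher in CD26− WB1P, CD26− WB1P-Myc and CD26+ WB1P CAFs (log2 5.03, 4.69 and 4.94). It was also called higher in CD26+ WB1P-Myc CAFs (log2 3.55, FDR = 0.0349). The calls in CD26− WB1P, CD26− WB1P-Myc and CD26+ WB1P CAFs were lost without control mouse 3 (FDR = 0.0612, 0.0785 and 0.0519). Those in CD26− cells were also lost without control mouse 2 (FDR = 0.0514 and 0.0627). Gcg, the gene between Dpp4 and Fap that encodes the GLP-1 precursor, was called lower (log2 −4.44 in CD26− WB1P, −3.41 in CD26− WB1P-Myc and −2.77 in CD26+ WB1P CAFs). The second call was lost without control mouse 3 (log2 −2.45, FDR = 0.0655). The last was lost without control mouse 1 (log2 −2.11, FDR = 0.157) or 3, without WB1P mouse 5, 6 or 8, and without the low-count filter. Gcg levels were low, at 0.0457 to 1.68 CPM in CD26− WB1P-Myc CAFs, which leaves the sizes of its changes uncertain. Ccl11, eotaxin, was called higher in CD26+ than CD26− WB1P CAFs (log2 1.09, FDR = 0.0123), a call lost without WB1P mouse 7 (FDR = 0.0556) or 8 (FDR = 0.0611). Ccl11 was also called lower in CD26− WB1P CAFs than in CD26− NFs (log2 −1.21, FDR = 0.00739). In NFs it was higher in the CD26+ cells of 1 of 3 mice. Csf2 was called higher in CD26+ than CD26− WB1P CAFs too (log2 3.16, FDR = 0.0261). That call was lost without WB1P mouse 4, 6, 7 or 8 (FDR of up to 0.0830) and in a fit of only these groups (FDR = 0.0553). By CD26 class, 0 of the 12 were called in NFs and WB1P-Myc CAFs by edgeR, and 2 were called higher in WB1P CAFs, beside 4.17%, 20% and 26% of all genes in these comparisons. With the mouse as a block the totals were 1, 4 and 6 in NFs, WB1P-Myc and WB1P CAFs. These are not read against the shares above, which belong to the fit without the block.

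Of the 8 substrates of FAP, PREP and PRCP, all tested, 3 were called higher and 1 lower in 3 of the 4 comparisons of CAFs with NFs, and 1 and 1 in CD26− WB1P-Myc cells, with median log2 changes of 0.73 and 0.64 in CD26− and CD26+ WB1P and of 0.62 and 0.52 in CD26− and CD26+ WB1P-Myc CAFs. With 33.5% to 36.6% of all genes called in these comparisons, the counts are not read as particular to the list. Serpinf2, the gene of the FAP substrate alpha-2-antiplasmin, was called lower in all 4 (log2 −2.48, −2.30, −2.15 and −2.49). Its level was low, at 0.212 to 0.682 CPM in CD26+ WB1P-Myc CAFs, which leaves the size of the change uncertain. Without control mouse 2 it was not called in CD26− WB1P-Myc (log2 −1.61, FDR = 0.0626) or CD26+ WB1P CAFs (log2 −1.78, FDR = 0.0575), the latter call being lost also without WB1P mouse 7 (FDR = 0.0549) and in a fit of only these groups (FDR = 0.0533). Tmsb4x, whose product thymosin beta 4 is cut by PREP, was called higher in all 4 (log2 1.38, 1.38, 0.92 and 0.77), the third call being lost in a fit of only the groups compared (FDR = 0.0668). The collagen gene Col1a1 was called higher in all but CD26− WB1P-Myc CAFs, by log2 0.92 in CD26− WB1P, 1.02 in CD26+ WB1P and 0.90 in CD26+ WB1P-Myc CAFs. Without control mouse 2 both CD26+ calls were lost (FDR = 0.0542 and 0.0854), as they were in fits of only the groups compared, and that in WB1P-Myc also without the 8x8 mice (FDR = 0.0977).

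Around Dpp4 and Fap on chromosome 2, 5 of 7 listed neighbours were tested. By CD26 class 1 was called higher in CD26+ NFs, 3 in CD26+ WB1P and 2 in CD26+ WB1P-Myc CAFs, and none lower, beside 2.67%, 13% and 9.29% of all genes called higher. Slc4a10, a bicarbonate transporter gene whose end faces that of Dpp4 at a distance of 3342 bases on the other strand, was called higher in all 3, the call in NFs being lost in a fit of only these groups (FDR = 0.0795). It had 17, 187 and 105 counts in the CD26+ sums of control, 36, 5, 44 and 29 in those of WB1P, and 39, 9, 7, 4 and 16 in those of WB1P-Myc mice, against 0 to 4 counts in any CD26− sum. The CD26+ counts were 0.0420% to 0.878% of the Dpp4 counts of the same sums, and the CD26− counts 0% to 2.27%. Whether the authors' counting used the strand is not given in the sources used here, and the part of reads from Dpp4 in these counts was not tested. Gca, the gene of the calcium-binding protein grancalcin, was called higher in CD26+ CAFs (log2 1.69 in WB1P and 1.40 in WB1P-Myc). Against NFs, Slc4a10 was called lower in CD26+ WB1P-Myc CAFs (log2 −2.23, FDR = 0.0158). That call was lost without control mouse 2 (FDR = 0.149) or the 8x8 mice (FDR = 0.0752). Psmd14 was called higher than in NFs in CD26− WB1P-Myc, CD26+ WB1P and CD26+ WB1P-Myc CAFs (log2 0.64, 0.71 and 0.74). In these comparisons 36.6%, 33.5% and 34.7% of all genes were called.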

How the data were processed

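The authors aligned reads of stranded, poly(A)-selected libraries and deposited raw gene counts, 1 column per library, with Ensembl IDs and symbols. The submitters' processing notes name HISAT2 2.2.1 and GRCm38, while the counter, annotation and strand setting are not given in the sources used here. The methods name HiSeq and NovaSeq sequencers, and which library ran on which was not used here. No library was left out, and no column was unmapped. Library totals had a median of 12818093 counts, and sums held 5790599 to 29498005. Rows without a gene held 0 counts. Of the 63 pairs of libraries from a group none looked like duplicates.

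Counts were summed per mouse and CD26 class, so that the mouse is the replicate (25 sums in 6 groups, 10 contrasts), and libraries were used for 4 contrasts by En1 (12 groups). edgeR 4.0.16 in R 4.3.3 (TMM scaling, filterByExpr, quasi-likelihood F test, Benjamini-Hochberg adjustment) was run over 16601 genes in sums and 15584 in libraries, with all groups in 1 fit. The study itself used DESeq2 with a fold limit besides. CPM are counts over TMM-scaled library sizes, the standard error is the log2 change over the root of F, and intervals are at 95%. Fits were tested on simulated data. The CD26− and CD26+ sums of a mouse deviated together (r = 0.237 to 0.668 over 12 mice), the pairing coming from the mouse numbers in the labels. Named genes were the 7 members, called genes of lists of peptidases, substrates and neighbours (at most 3 per list and comparison), and the 5 genes most like Dpp4 or Fap. The 5 most like Prcp were added after its values were seen. Members, lists and tests were chosen with earlier results of these data known. Alternatives were DESeq2 1.42.0 size factors, its Wald test, no filter on low counts, the mouse as a block, only the groups compared, without the 8x8 mice, and each of 13 mice left out. Lengths and sequences came from GENCODE M21, in which 54869 of 55486 genes had the coordinates of the count table.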

Additional observations from a re-analysis of the deposited data

Results flagged for a closer look

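In groups of 4 or 5 mice, a mouse far from the rest of its group by Dixon's criterion was found for 1 of 28 groups of the members, and chance alone gives about 1 in 20. Dpp9 was at 82.0 CPM in the CD26+ sum of WB1P mouse 6, against 73.7 to 74.7 CPM in the other 3 mice. This sum is a lone library and the shallowest, with 5790599 counts. In the same sum Tmsb4x was at 1061 CPM, against 455 to 532 CPM.

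Among the substrates, WB1P mouse 5 stood apart for 3 secreted factors. Its CD26− sum had Csf2 at 79.8 CPM against 2.40 to 9.94, Ccl5 at 5.63 CPM against 0.0775 to 1.55, and Csf3 at 104.7 CPM against 1.47 to 8.13, and its CD26+ sum had Csf3 at 90.2 CPM against 17.4 to 25.7. WB1P-Myc mouse 13, marked 8x8, stood apart in its CD26+ sum, with Ccl5 at 53.2 CPM against 0.141 to 3.33, Cxcl11 at 11.3 CPM against 0 to 2.19, and Serpinf2 at 0.682 CPM against 0.212 to 0.276. In the CD26− sum of WB1P-Myc mouse 11, a lone library, Gcg was at 1.68 CPM against 0.0457 to 0.518, and Npy at 2.87 CPM against 0 to 0.666.

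The CD26 difference of Ctsc was larger in CAFs than in NFs by a test of the difference (log2 −2.22, FDR = 0.0226, edgeR). It was lost without control mouse 1 or 3, with an FDR of up to 0.148.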

How the results depend on the processing

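Over the members, 1755 of 1785 values under the alternatives kept their direction and their side of the threshold, 22 lost the call, 8 gained it and 0 reversed. With DESeq2 size factors, without the low-count filter, in a fit of only the groups compared, and without the 8x8 mice, 1 member in place of 2 was called by CD26 class in NFs, with 1 to 2 when a mouse was left out. Without the 8x8 mice 0 in place of 1 was called in CD26− WB1P-Myc against NFs (0 to 2 with a mouse left out), and only the groups compared gave 0 in place of 1 in CD26+ WB1P against NFs (0 to 1). In CD26− WB1P against NFs 0 to 3 were called with a mouse left out. Prcp in CD26− WB1P-Myc against NFs gained a call in a fit of only these groups (FDR = 0.0132), and Prcp or Prep gained 7 more calls in CD26− CAFs when a mouse was left out. The mouse as a replicate block changed no call of a member (2 of 7 in each CD26 comparison), but moved the genes called by CD26 from 692 to 1916 in NFs and from 3326 to 5346 in WB1P-Myc CAFs. No paired analysis was possible for CAFs against NFs or between tumor models, because each mouse belongs to 1 model. Over all genes, DESeq2 called 402 against 85 for WB1P-Myc against WB1P in CD26− cells and 9 against 0 in CD26+ cells, and 726 against 351 for the interaction, which the block moved to 1010. Only the groups compared gave 2834 against 5566 in CD26+ WB1P against NFs, 202 against 692 by CD26 in NFs, and 6 against 85 for WB1P-Myc against WB1P in CD26− cells. By En1, DESeq2 and the block called 8 and 11 against 0 in CD26− CAFs, 6 and 25 against 1 in CD26− NFs. The cause was not tested. Of 1077 values of listed genes 91 lost a call and 0 reversed. Dpp4, at 8 counts in its lowest sum, was limited by depth in CD26− cells.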

Other observations

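Dpp10, a relative of Dpp6 without enzyme activity, was too low to be tested in the sums. In the libraries it was tested by En1 and not called. It had 97 and 103 counts (4.25 and 3.76 CPM) in the CD26− and CD26+ sums of WB1P mouse 7, and 0 to 4 counts in every other sum.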
